A study of Mus musculus with 24 samples.

Results

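The 6 genes followed here belong to the paraventricular and supraoptic nuclei: the hormone genes Avp, Oxt, Trh and Crh, and the transcription factor genes Sim1 and Otp. A member was a gene with a probe set annotated to exactly 1 of these symbols, and the probe set with the highest mean would have stood for a gene with several. Each of the 6 had 1 such probe set, among 19938 genes measured this way, and 5 of the 6 passed the filter on low values that left 11871 genes for testing. Crh did not pass. The tissue was labelled mediobasal hypothalamus, from mice of a background strain written C57BL76J in the labels. In the timed sleep restriction (TSR) condition, gentle handling prevented sleep between ZT0 and ZT6 on 5 days in a row, then came 2 days of free sleep and 5 more days of restriction. Control mice (CON) were left undisturbed. Zeitgeber time (ZT) counts hours from lights on, and RNA of 3 mice of each condition was hybridised at ZT1, ZT7, ZT13 and ZT19, giving 24 Affymetrix arrays. The day of tissue collection, the age and sex of the mice, and whether the dissection was meant to include the paraventricular or supraoptic nucleus were not given in the sources used here.

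Anatomically, the paraventricular nucleus lies beside the third ventricle and the supraoptic nucleus above the optic chiasm. Their large neurons make vasopressin, which limits water loss, and oxytocin, which acts in birth, lactation and social behaviour, and release both into the blood in the posterior pituitary. Small neurons of the paraventricular nucleus release thyrotropin-releasing hormone, which drives the thyroid axis, and corticotropin-releasing hormone, which drives the adrenal axis, at the median eminence. SIM1 and OTP are transcription factors needed for these neurons to form, and both stay active in the adult hypothalamus. None of the 6 genes is restricted to these nuclei: Avp is also made in the suprachiasmatic nucleus, the seat of the circadian clock, Trh is made in several other hypothalamic areas, and Otp marks neurons of the arcuate nucleus as well.

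To place the hormone genes in sequence, RefSeq promoter windows on GRCm38.p6 (250 bases before to 50 after the start of the gene, 300 in all) are shown for the 3 hormone genes that passed the filter and whose levels the results turn on. Motif letters are in capitals, and positions count from 1 at the 5′ end of each window. Avp lies at chr2:130582539-130582838 on the minus strand, Oxt at chr2:130575919-130576218 on the plus strand and Trh at chr6:92244601-92244900 on the minus strand.
Avp: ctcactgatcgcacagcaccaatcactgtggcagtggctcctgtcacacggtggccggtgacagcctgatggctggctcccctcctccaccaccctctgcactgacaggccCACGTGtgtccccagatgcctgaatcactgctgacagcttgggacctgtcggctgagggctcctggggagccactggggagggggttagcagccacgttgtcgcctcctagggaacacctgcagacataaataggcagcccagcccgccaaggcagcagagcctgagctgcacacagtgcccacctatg
Oxt: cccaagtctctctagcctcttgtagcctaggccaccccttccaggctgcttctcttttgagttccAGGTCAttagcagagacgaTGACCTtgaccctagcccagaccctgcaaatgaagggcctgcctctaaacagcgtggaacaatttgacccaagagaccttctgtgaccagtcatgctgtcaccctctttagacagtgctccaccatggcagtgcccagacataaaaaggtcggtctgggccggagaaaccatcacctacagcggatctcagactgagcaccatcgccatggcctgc
Trh: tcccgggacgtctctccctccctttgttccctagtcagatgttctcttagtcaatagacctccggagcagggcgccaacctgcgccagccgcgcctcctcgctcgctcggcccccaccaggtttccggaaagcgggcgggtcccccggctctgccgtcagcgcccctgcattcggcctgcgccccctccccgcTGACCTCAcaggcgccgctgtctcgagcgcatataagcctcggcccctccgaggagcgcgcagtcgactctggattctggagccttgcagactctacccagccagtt

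A set of 4 motifs was searched on both strands in the promoter windows of 5 of the 6 genes: CACGTG, the E-box bound by the CLOCK and BMAL1 proteins; TGACGTCA, the cyclic AMP response element; its variant TGACCTCA; and AGGTCA, the core letters bound by many nuclear receptors. On the other strand AGGTCA reads as TGACCT, so it overlaps with TGACCTCA. The Avp window held 1 CACGTG at position 112, the Oxt window 2 AGGTCA, at positions 66 and 85 (the one at 85 on the reverse strand), and the Trh window 1 TGACCTCA at position 194, whose first letters also count as AGGTCA. The windows of Sim1 and Otp held 0 of the 4 motifs. Among 32851 RefSeq promoter windows of the same length, CACGTG was found in 7.15%, TGACGTCA in 1.79%, TGACCTCA in 2.17% and AGGTCA in 16.3%. These matches are letters in a window, not shown binding sites.

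Before any comparison, 4 arrays stood apart from the other 20: TSR ZT1 replicate 3, TSR ZT13 replicate 2, and CON ZT19 replicates 2 and 3. The interquartile range of their log2 signals was 2.12 to 2.25, against 2.96 to 3.29 in the other arrays, and their median Spearman correlation with the rest was 0.836 to 0.882, against 0.976 to 0.986. They fall under the minimum of 2.5 set for the interquartile range and are called narrow arrays. In every one of the 4, Avp, Oxt, Trh, Crh and Sim1 read lower than in the other arrays of the same group, with differences of -1.99 to -1.64 log2 units for Trh, while Otp read 0.057 to 0.92 higher. The differences between conditions at each time are therefore given for all 24 arrays and for the 20 without the narrow ones, and results over the 20 alone are named as such. In the 20, CON ZT19 keeps 1 array, taken to be as variable as the rest of the groups. The median residual SD of a gene was 0.361 log2 units over 24 arrays and 0.111 over 20. The ZT7 groups hold no narrow array, so their differences are the same in both fits and only the errors change.

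**Figure D1:**
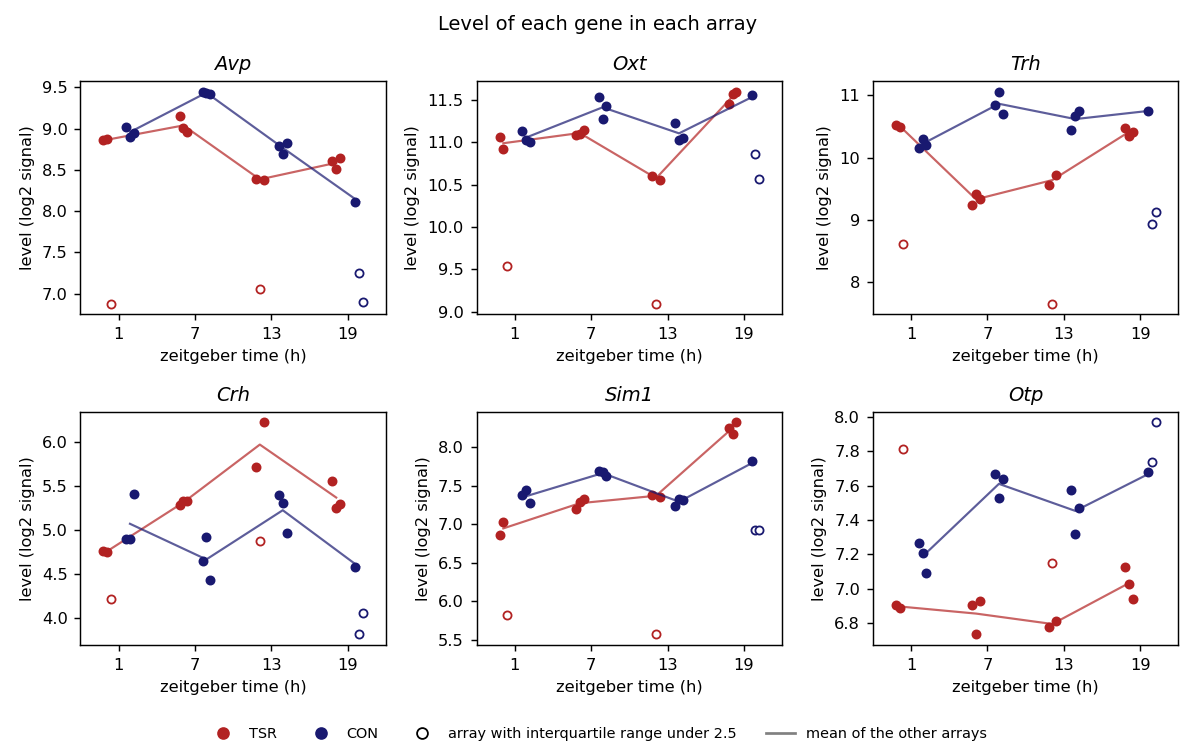
Level (log2 signal) of each gene by zeitgeber time (h), 1 point per array, TSR in red to the left of CON in dark blue; open circles are the 4 narrow arrays and lines join the means of the other arrays. Trh lies at 9.24 to 9.41 in TSR at ZT7, against 10.69 to 11.06 in CON, and Otp is lower in TSR than in CON at ZT7, ZT13 and ZT19 in every array.

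Trh, the precursor of thyrotropin-releasing hormone, was lower in TSR than in CON in the middle of the day and at the start of the night. At ZT7 its level was 9.24, 9.41 and 9.33 log2 units in TSR, against 10.84, 11.06 and 10.69 in CON. At ZT13 it was 9.56, 7.65 (narrow array) and 9.71 in TSR, against 10.44, 10.66 and 10.75 in CON. The groups did not overlap at either time. By limma, the difference at ZT7 was -1.54 ± 0.09 (SE) over 20 arrays, so that the signal in TSR was 0.344 of that in CON (adjusted p = 1.6e-10). At ZT13 it was -0.98 ± 0.10, or 0.507 of CON (adjusted p = 2.27e-07). Over 24 arrays the differences were -1.54 ± 0.52 and -1.64 ± 0.52 and neither passed the threshold of 0.05 (adjusted p = 0.406 and 0.169).

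At the other times Trh levels lay closer together. At ZT1 they were 10.53, 10.49 and 8.61 (narrow array) in TSR, against 10.16, 10.30 and 10.20 in CON. The 2 typical TSR arrays lay above all 3 CON arrays, as they did for 33.2% of genes. The difference of 0.29 ± 0.10 did not pass the test over 20 arrays (limma, adjusted p = 0.0576). At ZT19 they were 10.48, 10.34 and 10.41 in TSR, against 10.76, 8.93 and 9.12 in CON, where the last 2 are narrow arrays. Over 20 arrays Trh was lower in TSR at ZT19 by limma (-0.34 ± 0.12, adjusted p = 0.0413), a difference that rests on 1 CON array. With all 24 arrays the direction was the other way, at 0.81 ± 0.52 (adjusted p = 0.17) and, with each array weighted by its estimated precision, at 1.31 ± 0.15 (limma, adjusted p = 1.95e-09). The direction of Trh at ZT19 therefore depends on the narrow CON arrays. The weighted difference lies farther from the value over 20 arrays than the unweighted one does. The weighting thus leaned toward the 2 narrow CON arrays, not the typical one. The call over 20 arrays was also lost without a filter (adjusted p = 0.0576). This call was lost without TSR ZT19 replicate 1, 2 or 3 (adjusted p = 0.0505, 0.0897 and 0.0608) and on leaving out any of 4 arrays of other times, the highest p among those being 0.0511. Averaged over the 4 times the difference was -0.64 ± 0.05 over 20 arrays (adjusted p = 5.64e-09) and -0.68 ± 0.26 over 24 (adjusted p = 0.187).

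Avp, which encodes vasopressin and its carrier neurophysin, was lower in TSR at ZT7 and ZT13 and higher at ZT19. At ZT7 its level was 9.15, 9.01 and 8.95 in TSR, against 9.45, 9.43 and 9.42 in CON. The ZT13 levels were 8.39, 7.06 (narrow array) and 8.38 in TSR, against 8.78, 8.69 and 8.83 in CON. At ZT19 it was 8.61, 8.51 and 8.64 in TSR, against 8.11, 7.25 and 6.91 in CON, the last 2 from narrow arrays. The conditions did not overlap at these times. Over 20 arrays the differences by limma were -0.40 ± 0.06 at ZT7 (adjusted p = 9.55e-05), -0.38 ± 0.07 at ZT13 (adjusted p = 2.2e-04) and 0.47 ± 0.09 at ZT19 (adjusted p = 0.00128). At ZT1 the levels were 8.86, 8.87 and 6.88 (narrow array) in TSR, against 9.02, 8.90 and 8.95 in CON, and the difference was -0.09 ± 0.07 (adjusted p = 0.41).

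The summed signal of suprachiasmatic markers differed in the same direction as Avp at ZT7, ZT13 and ZT19. Across times it did not follow Avp in TSR, and in CON it did so in part. The summed linear signal of the 11 markers of that nucleus was 1778 to 1859 in TSR at ZT7, against 2884 to 3092 in CON. At ZT13 it was 1912 to 2009 in TSR, against 2352 to 2604 in CON, and at ZT19 it was 3014 to 3070 in TSR, against 2675 in the 1 CON array, over the 20 arrays. At ZT1 the sum was 1960 to 2015 in the typical TSR arrays, against 2096 to 2262 in CON, while the Avp difference was not called. Within TSR the sum was lowest at ZT7, where the mean of Avp was highest (9.04), and highest at ZT19. Within CON the sum and the mean of Avp (9.44) were both highest at ZT7. At ZT19, in 1 CON array, Avp was lowest (8.11) and the sum was not. Of these 11 markers, Vip and Nms had a mean under the filter's threshold. Fewer cells of a type and less RNA per cell cannot be told apart in bulk tissue, and the part of suprachiasmatic tissue in the Avp differences was not tested. Over 24 arrays the Avp difference passed the test at ZT19 alone (1.16 ± 0.42, adjusted p = 0.0304), where the median difference of all genes was 0.60.

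Oxt, which encodes oxytocin, was lower in TSR at ZT7 and ZT13. At ZT7 it was 11.09, 11.10 and 11.15 in TSR, against 11.54, 11.28 and 11.43 in CON. The ZT13 levels were 10.60, 9.09 (narrow array) and 10.55 in TSR, against 11.23, 11.03 and 11.06 in CON. The groups did not overlap at these 2 times, and the differences over 20 arrays by limma were -0.30 ± 0.07 (adjusted p = 0.00189) and -0.53 ± 0.07 (adjusted p = 1.45e-05). Quantile normalization of the 20 arrays ended the call at ZT7 (-0.20, adjusted p = 0.056). At ZT1 the levels were 11.06, 10.92 and 9.54 (narrow array) in TSR, against 11.14, 11.03 and 11.01 in CON. At ZT19 they were 11.45, 11.58 and 11.60 in TSR, against 11.56, 10.87 and 10.57 in CON, the last 2 from narrow arrays. The typical arrays overlapped at both times, with differences of -0.07 ± 0.07 (adjusted p = 0.588) and -0.01 ± 0.09 (adjusted p = 0.931). Over 24 arrays Oxt passed the test at no time, with adjusted p of 0.235 at ZT13 and 0.202 at ZT19.

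Crh, which encodes corticotropin-releasing hormone, had a mean of 5.00 log2 units over 24 arrays. It was above the filter's threshold of 5.86 in 1 array, so it was fitted with all 19938 genes and no filter, and its signal was not shown to lie above background. The ZT7 levels were 5.29, 5.32 and 5.32 in TSR, against 4.65, 4.91 and 4.44 in CON. The ZT13 levels were 5.72, 4.88 (narrow array) and 6.22 in TSR, against 5.39, 5.31 and 4.97 in CON. By ZT19 it was 5.56, 5.25 and 5.29 in TSR, against 4.58, 3.82 and 4.06 in CON, the last 2 from narrow arrays. TSR was thus the higher condition at ZT7 and ZT19 in every array, and at ZT13 in the typical arrays. At ZT1 the direction was the other way, with 4.77, 4.75 and 4.22 (narrow array) in TSR, against 4.90, 4.90 and 5.41 in CON. Over 20 arrays without a filter the limma differences were -0.31 ± 0.19 at ZT1 (adjusted p = 0.331), 0.65 ± 0.17 at ZT7 (adjusted p = 0.00891), 0.74 ± 0.19 at ZT13 (adjusted p = 0.00413) and 0.79 ± 0.23 at ZT19 (adjusted p = 0.0305). In that fit 15.4% of genes were called at ZT7, 27.2% at ZT13 and 13% at ZT19. Over 24 arrays Crh passed the test at ZT19 alone (1.22 ± 0.27, adjusted p = 0.0251), where 49.7% of genes did.

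Sim1, the factor that specifies the paraventricular and supraoptic neurons together with its partner ARNT2, was lower in TSR at ZT1 and ZT7 and higher at ZT19. At ZT1 it was 6.86, 7.03 and 5.83 (narrow array) in TSR, against 7.37, 7.45 and 7.27 in CON. At ZT7 it was 7.20, 7.29 and 7.32 in TSR, against 7.69, 7.68 and 7.62 in CON. At ZT19 it was 8.25, 8.17 and 8.32 in TSR, against 7.82, 6.93 and 6.93 in CON, the last 2 from narrow arrays. The conditions did not overlap at these 3 times. Over 20 arrays the limma differences were -0.42 ± 0.08 at ZT1 (adjusted p = 0.00218), -0.39 ± 0.07 at ZT7 (adjusted p = 3.24e-04) and 0.43 ± 0.10 at ZT19 (adjusted p = 0.00494). The call at ZT1 was lost without TSR ZT1 replicate 1 (-0.33, adjusted p = 0.0699). At ZT13 the levels were 7.38, 5.57 (narrow array) and 7.36 in TSR, against 7.23, 7.33 and 7.31 in CON, and the difference over 20 arrays was 0.08 ± 0.08 (adjusted p = 0.439). Over 24 arrays it passed the test at ZT19 alone (1.02 ± 0.36, adjusted p = 0.0282), and quantile normalization of the 24 arrays ended that call (0.75 ± 0.40, adjusted p = 0.114).

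Otp, a homeobox factor that acts in parallel with SIM1, was lower in TSR at ZT7, ZT13 and ZT19. The ZT7 levels were 6.91, 6.73 and 6.93 in TSR, against 7.66, 7.53 and 7.64 in CON. The ZT13 levels were 6.78, 7.15 (narrow array) and 6.81 in TSR, against 7.57, 7.32 and 7.47 in CON. At ZT19 it was 7.12, 7.03 and 6.94 in TSR, against 7.68, 7.73 and 7.97 in CON, the last 2 from narrow arrays. No TSR array reached the CON arrays at these times, narrow arrays included. Over 20 arrays the limma differences were -0.75 ± 0.08 (adjusted p = 1.14e-06), -0.66 ± 0.09 (adjusted p = 1.2e-05) and -0.64 ± 0.11 (adjusted p = 8.43e-04). At ZT1 the levels were 6.91, 6.89 and 7.81 (narrow array) in TSR, against 7.26, 7.21 and 7.09 in CON. The difference there of -0.29 ± 0.09 over 20 arrays (adjusted p = 0.0459) was lost on leaving out 1 array in 10 cases, among them each typical TSR ZT1 array and CON ZT1 replicates 1 and 2 (adjusted p = 0.0912 to 0.225). Otp was the 1 gene of the 5 tested whose difference averaged over the times passed in both fits, at -0.51 ± 0.09 over 24 arrays (limma, adjusted p = 0.00775) and -0.59 ± 0.05 over 20 (adjusted p = 1.04e-08).

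Over all genes, the count of the 5 tested genes past the threshold is read against the share of all genes past it. At ZT7 all 5 were lower in TSR over 20 arrays, where 27.2% of genes were called and 14.1% were called lower. At ZT13, 4 of the 5 were called, all lower in TSR, against 46.7% of genes called and 22% called lower. At ZT1, 2 of the 5 were called, both lower in TSR (Sim1 and Otp), against 10.2% of genes called and 3.12% called lower. At ZT19 4 were called (Avp and Sim1 higher in TSR, Trh and Otp lower) against 25% of genes, with 18% higher and 7.01% lower. The average over times called 4 of the 5, all lower in TSR (Avp, Oxt, Trh and Otp), against 57% of genes called and 22.8% called lower. The Avp call in that average (-0.10 ± 0.04, adjusted p = 0.0275) and the Oxt call (-0.23 ± 0.04, adjusted p = 6.8e-05) were the smallest differences among them. The Avp call was lost without TSR ZT1 replicate 1 or TSR ZT19 replicate 2 (adjusted p = 0.0504 for each). With array weights over 24 arrays the average was higher in TSR for Avp (0.16 ± 0.05, limma adjusted p = 0.00354) and stood at -0.01 ± 0.04 for Oxt (adjusted p = 0.84). Over 24 arrays 0 of the 5 were called at ZT1, ZT7 and ZT13, where 0.0505%, 0.43% and 0.413% of genes were; at an unadjusted limma p under 0.05 they were 1, 2 and 3. At ZT19 3 of the 5 were called in that fit (Avp, Sim1 and Otp) against 55.4% of genes, and in the average 1 of 5 against 2.41%. With array weights over 24 arrays, 3 of the 5 were called at ZT1 against 26.3% of genes, 5 at ZT7 against 31.5%, 4 at ZT13 against 50.9%, 5 at ZT19 against 83.8% and 4 in the average against 78.1%. The 5 at ZT19 included Trh and Oxt (0.87 ± 0.13), higher in TSR. Both weighted differences lie farther from the values over 20 arrays than the unweighted ones do. The weights at ZT19 thus leaned toward the narrow CON arrays, and the weighted averages include that time. Without regard to a fit, all 5 tested genes had every TSR array under every CON array at ZT7, which 18.8% of genes did. The share of all genes without overlap in either direction over 24 arrays was 15.1% at ZT1, 36.2% at ZT7, 27.4% at ZT13 and 56.7% at ZT19. Over the 20 typical arrays it was 52.4%, 36.4%, 63.1% and 79.6%, with 1 CON array at ZT19.

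**Figure D2:**
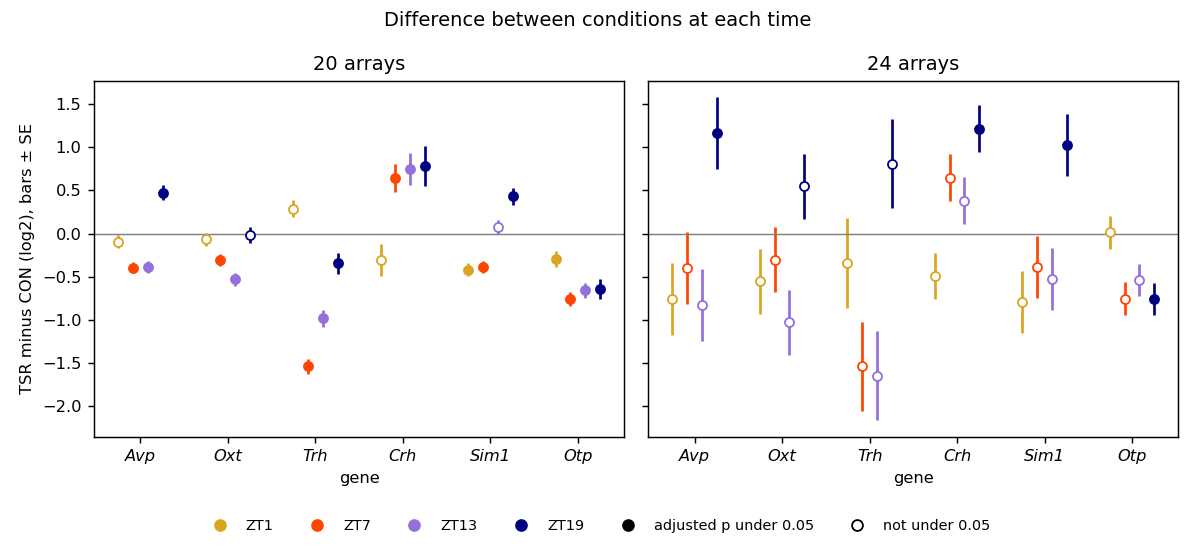
TSR minus CON (log2) for each gene at ZT1, ZT7, ZT13 and ZT19, with the standard error of the limma fit, over 20 arrays (left) and 24 arrays (right); filled points have an adjusted p under 0.05, and Crh is from the fit without a filter. At ZT7 the points are at the same height in both panels, -1.54 for Trh, while the error for Trh is 0.09 over 20 arrays and 0.52 over 24.

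The level of a hormone gene can change within its neurons or with the share of those neurons in the dissected tissue. Sim1 and Otp were therefore used as a measure of that share, by taking the mean of their log2 levels from the level of each hormone gene in the same array. Both are transcripts themselves, and a change of them in every cell cannot be told apart from a change of share. The mean of Sim1 and Otp was 7.01 to 7.13 in TSR at ZT7, against 7.60 to 7.68 in CON. At ZT13 it was 7.08 in both typical TSR arrays, against 7.32 to 7.40 in CON, and at ZT19 it was 7.60 to 7.69 in TSR, against 7.75 in the 1 typical CON array. At ZT1 it was 6.88 and 6.96 in the typical TSR arrays, against 7.18 to 7.33 in CON.

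Relative to that mean, Trh remained the lower in TSR at ZT7 and ZT13. Its level less the mean of Sim1 and Otp was 2.18 to 2.40 log2 units in TSR at ZT7, against 3.06 to 3.46 in CON, and 2.48 and 2.63 in the typical TSR arrays at ZT13, against 3.04 to 3.36 in CON. Over 20 arrays the relative differences by limma were -0.97 ± 0.10 at ZT7 (adjusted p = 1.77e-08) and -0.69 ± 0.11 at ZT13 (adjusted p = 1.58e-05). Genes called lower in TSR on this scale were 0.464% of all at ZT7 and 4.49% at ZT13, since the mean itself was lower in TSR and most genes were not. At ZT1 Trh was higher in TSR on this scale (0.64 ± 0.11, adjusted p = 5.74e-05), as were 76.7% of genes, and at ZT19 the difference of -0.24 ± 0.14 did not pass (adjusted p = 0.19). Over 24 arrays the relative differences of Trh were -0.97 ± 0.41 at ZT7 and -1.11 ± 0.41 at ZT13 and did not pass (adjusted p = 0.0653 and 0.0779).

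Avp and Oxt behaved otherwise on this scale. Avp at ZT7 less the mean of Sim1 and Otp was 1.83 to 2.10 in TSR, against 1.77 to 1.83 in CON, a difference of 0.18 ± 0.08 over 20 arrays (limma, adjusted p = 0.0334), where 93.5% of genes were called higher in TSR. Oxt at ZT7 was 4.02 to 4.09 in TSR on this scale, against 3.68 to 3.86 in CON, a difference of 0.27 ± 0.07 (adjusted p = 0.00189). Thus at ZT7 Avp and Oxt were lower in TSR by less than the mean of Sim1 and Otp was, and Trh by more. At ZT13 Oxt was lower in TSR on this scale (-0.24 ± 0.08, adjusted p = 0.017) and Avp did not pass (-0.09 ± 0.09, adjusted p = 0.366). At ZT19 Avp was higher in TSR (0.58 ± 0.11, adjusted p = 9.1e-04), as were 27.8% of genes, and Oxt did not pass (0.09 ± 0.11, adjusted p = 0.516). Avp at ZT19 was the 1 relative difference called over 24 arrays among the 3 hormone genes at the 4 times (1.03 ± 0.34, adjusted p = 0.0192), where 54.3% of genes were called.

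Sim1 and Otp did not move together, which limits their mean as a measure of tissue share. Sim1 less Otp was 0.30, 0.56 and 0.40 log2 units in TSR at ZT7, against 0.02, 0.15 and -0.02 in CON. At ZT13 it was 0.61, -1.58 (narrow array) and 0.54 in TSR, against -0.34, 0.01 and -0.15 in CON. At ZT19 it was 1.12, 1.14 and 1.38 in TSR, against 0.14, -0.81 and -1.03 in CON, the last 2 from narrow arrays. In the typical arrays the gap was wider in TSR at these 3 times, and at ZT1 the groups overlapped.

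Setting the hormone genes against 1 factor at a time showed which relative differences rest on the choice. Over 20 arrays Otp itself differed by -0.75 and Sim1 by -0.39 at ZT7, where the median difference of all genes was -0.00018. At ZT13 they differed by -0.66 and 0.08, against a median of 0.0037. A gene without a difference thus reads higher in TSR against Otp at both times, and against Sim1 at ZT7. The shares of all genes called against 1 factor are not given here, so the calls below cannot be read against them. Against Sim1 alone, over 20 arrays, Trh was lower in TSR at ZT7 (-1.15 ± 0.09) and ZT13 (-1.06 ± 0.10), and against Otp alone it was also lower, by less (-0.78 ± 0.13 and -0.32 ± 0.14, limma adjusted p at ZT13 0.0348). Avp at ZT7 was level with Sim1 (-0.01 ± 0.09, adjusted p = 0.948) and higher in TSR against Otp (0.36 ± 0.10, adjusted p = 0.00162). Oxt at ZT7 likewise was called against Otp (0.45 ± 0.09) and not against Sim1 (0.09 ± 0.09, adjusted p = 0.353). At ZT13 Avp was lower in TSR against Sim1 (-0.46 ± 0.10, adjusted p = 4.7e-04) and higher against Otp (0.27 ± 0.11, adjusted p = 0.0258). At ZT19 Avp differed by 0.04 ± 0.13 against Sim1 (adjusted p = 0.8) and by 1.12 ± 0.14 against Otp. Oxt at ZT13 was -0.61 ± 0.10 against Sim1 and 0.13 ± 0.10 against Otp (adjusted p = 0.25), and at ZT19 -0.44 ± 0.12 and 0.63 ± 0.13. Among the 3 hormone genes at ZT7 and ZT13, Trh was the gene called lower in TSR at both times with either factor.

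**Figure D3:**
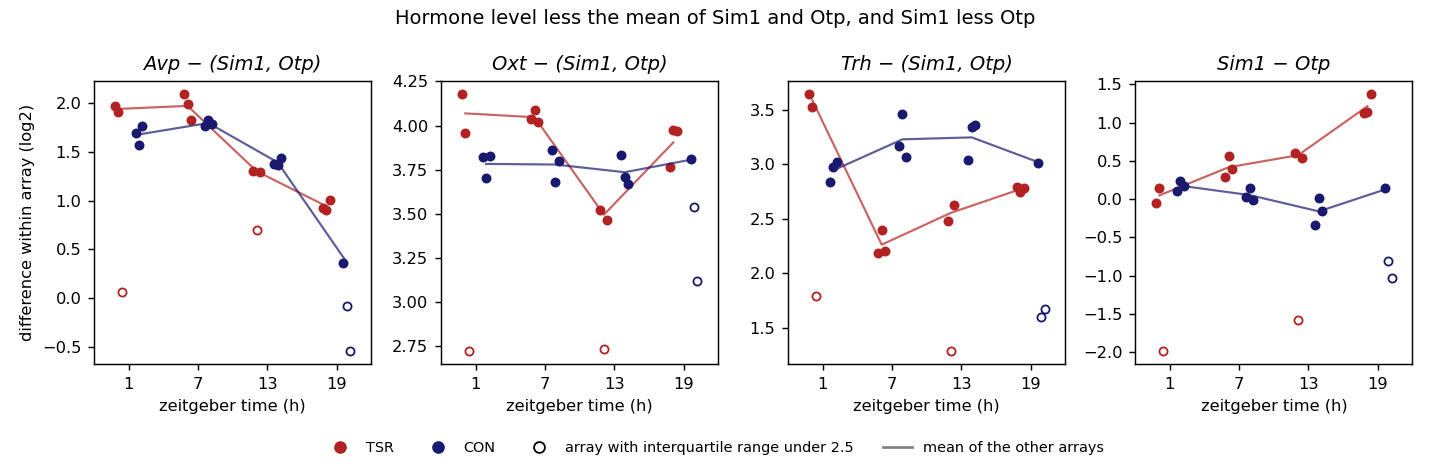
Level of Avp, Oxt and Trh less the mean of Sim1 and Otp in the same array, and Sim1 less Otp (log2 units), by zeitgeber time (h), TSR in red to the left of CON in dark blue, with open circles for narrow arrays and lines through the means of the others. Trh at ZT7 lies at 2.18 to 2.40 in TSR and at 3.06 to 3.46 in CON, and Sim1 less Otp at ZT19 is 1.12 to 1.38 in TSR and 0.14 in the typical CON array.

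Markers of other tissue also differed between conditions, in directions that changed with the list and, for some lists, with time. The summed linear signal of 6 forebrain cholinergic and striatal genes was 1430 to 1544 in TSR at ZT7, against 387 to 464 in CON, and all 6 were called higher in TSR over 20 arrays, where 13.1% of genes were, and all 5 tested over 24 arrays, where 0.219% were; Chat among them had a mean under the filter's threshold over 24 arrays. The 4 measured thalamus and cortex genes summed to 592 to 627 in TSR at ZT7, against 326 to 357 in CON, and to 862 to 864 in TSR at ZT13, against 392 to 448 in CON. The 8 measured arcuate and ventromedial genes, the defining genes of the labelled tissue, summed to 909 to 948 in TSR at ZT7, against 847 to 989 in CON, and to 813 to 846 in TSR at ZT13, against 990 to 1092 in CON; Pomc, Nr5a1 and Nr0b1 among them had means under the threshold. All 5 pituitary genes had means under it. At ZT1 the same 8 genes summed to 712 to 722 in the typical TSR arrays, against 995 to 1065 in CON, and 4 oligodendrocyte genes to 4327 to 4339 in TSR, against 2830 to 2882 in CON. At ZT7 the 3 vessel genes summed to 326 to 333 in TSR, against 209 to 229 in CON, and the 6 genes of neurons in general to 13824 to 14931 in TSR, against 12107 to 12748 in CON. Thalamus and cortex genes summed to 470 to 500 in typical TSR arrays at ZT1, against 550 to 578 in CON. At ZT19 they summed to 641 to 667 in TSR, against 316 in the typical CON array. Forebrain cholinergic and striatal genes at ZT19 summed to 676 to 709 in TSR, against 407 in that CON array. In typical arrays they summed to 1211 to 1279 in TSR at ZT1, against 1015 to 1162 in CON. At ZT13 they summed to 901 to 1016 in TSR, against 711 to 777 in CON, though not every gene of the list was higher there. The arcuate and ventromedial genes summed to 776 to 790 in TSR at ZT19, against 1160 in the typical CON array. The 4 astrocyte genes overlapped at ZT7, at 3416 to 3575 in TSR, against 3430 to 3639 in CON. The part of these tissues and cells in the differences of the hormone genes was not tested.

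The course over the day differed between conditions for 4 of the 5 tested genes over 20 arrays, where the 24-h rhythm differed for 29.5% of all genes. With 4 times 6 h apart, a 24-h cosine was fitted by limma contrasts, and amplitude is its height above the mean. Such a cosine cannot show levels that alternate every 6 h. From ZT1 to ZT19 the CON means of Oxt over 20 arrays were 11.06, 11.42, 11.11 and 11.56. Those of Sim1 were 7.36, 7.66, 7.29 and 7.82, with 1 array at ZT19. A low amplitude is thus not a flat course. Avp had an amplitude of 0.33 in TSR with its peak at ZT3.9 (adjusted p = 7.87e-06), against 0.67 in CON with its peak at ZT6.5 (adjusted p = 2.11e-08). Trh had an amplitude of 0.70 in TSR with its peak at ZT21.6 (adjusted p = 2.96e-08), against 0.21 in CON with its peak at ZT12.0 (adjusted p = 0.00576). Sim1 reached 0.53 in TSR with its peak at ZT17.4, against 0.08 in CON (adjusted p = 2.96e-08 and 0.361), and Oxt 0.30 in TSR with its peak at ZT21.9, against 0.07 in CON (adjusted p = 4.57e-05 and 0.435). The difference in rhythm itself was called for Trh (adjusted p = 3.49e-07), Avp (2.98e-05), Sim1 (4.57e-05) and Oxt (0.00323), and not for Otp (0.0741). In TSR 4 of the 5 genes were called rhythmic against 21.8% of genes, and in CON 2 of the 5 against 21.9%. Over 24 arrays 0 of the 5 were called in TSR, in CON or in the difference, where 0.0842%, 0.11% and 0.185% of genes were; at an unadjusted limma p under 0.05 they were 2, 1 and 3. The amplitudes in CON moved with the narrow arrays: over 24 arrays Trh had 0.71 in TSR, against 0.66 in CON with its peak at ZT8.2, and Avp 0.26 in TSR, against 1.01 in CON. Sim1 had 0.50 in TSR over 24 arrays, against 0.22 in CON, and Oxt 0.30 in TSR, against 0.21 in CON. With array weights 4, 5 and 5 of the 5 were called in TSR, in CON and in the difference, against 42.9%, 86.5% and 86.8% of genes. The CON rhythm over 20 arrays rests on 1 array at ZT19.

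In order of mean level over the typical arrays, the highest group for Avp was CON ZT7 (9.44) and the lowest CON ZT19 (8.11, 1 array); its span was 0.65 log2 units within TSR, against 1.32 within CON. Trh spanned 1.18 within TSR, with its lowest mean at ZT7, against 0.65 within CON. For Oxt the highest neighbours, TSR ZT19 (11.54) and CON ZT19 (11.56), did not differ beyond their spread, and the lowest was TSR ZT13 (10.58). Oxt spanned 0.97 within TSR, against 0.50 within CON. For Sim1 the span was 1.30 within TSR and 0.52 within CON. The 4 lowest groups of Otp were the 4 TSR groups, at 6.80 to 7.03, under the 4 CON groups at 7.19 to 7.68. With the narrow arrays kept, the spans were 1.10 within TSR against 2.01 within CON for Avp, 1.44 against 1.26 for Trh and 1.67 against 0.44 for Sim1, and TSR ZT1 (7.20) lay just above CON ZT1 (7.19) for Otp.

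Genes that act with these hormones were described from 3 lists. Of 12 partner factors, regulators of large neurosecretory neurons and peptides made beside the hormones, 10 were tested. Over 20 arrays 6 were lower in TSR at ZT7 and 0 higher, with a list median of -0.32 against -0.00 for all genes, of which 14.1% were called lower. At ZT13 6 were lower and 0 higher, with a median of -0.38 against 0.00 for all genes, of which 22% were called lower. Over 24 arrays 1 was lower at ZT7, 2 at ZT13 and 1 at ZT19, where 0.211%, 0.337% and 11% of genes were, and 3 were higher at ZT19, where 44.4% were. Rasd1, a small G protein that responds to salt load in vasopressin neurons of rats, differed by -0.81 ± 0.10 at ZT7 (limma, adjusted p = 4.33e-06) and by -1.06 ± 0.11 at ZT13 (adjusted p = 4.67e-07). Magel2, an imprinted gene active in these neurons, differed by -0.82 ± 0.10 at ZT7 and -0.84 ± 0.11 at ZT13 (adjusted p = 4.42e-06 and 7.21e-06). Gal, the peptide galanin, differed by -0.64 ± 0.11 and -0.67 ± 0.12 (adjusted p = 1.64e-04 and 1.7e-04). Creb3l1, a transcription factor that acts on the vasopressin gene in rats, differed by -0.53 ± 0.10 at ZT7 (adjusted p = 3.5e-04), and Arnt2, the partner of SIM1, by -0.55 ± 0.10 at ZT13 (adjusted p = 1.48e-04). Vgf, a neuropeptide precursor, was called lower at both times. At ZT19 Pdyn, the dynorphin precursor made in vasopressin neurons, was higher in TSR (0.56 ± 0.16, adjusted p = 0.0137), and 4 genes of the list were lower, against 18% of genes called higher and 7.01% called lower. Caprin2, which binds vasopressin transcripts in rats, was called at ZT19 over 24 arrays (0.98 ± 0.32, adjusted p = 0.0245) and stood at 0.45 ± 0.19 over 20 (adjusted p = 0.0859).

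Of 10 genes that process and store peptide hormones, 9 were tested. Pcsk1, the convertase that cuts hormone precursors, rose in TSR at every time over 20 arrays, by 0.36 ± 0.08 at ZT1, 0.59 ± 0.07 at ZT7, 1.09 ± 0.08 at ZT13 and 1.40 ± 0.10 at ZT19 (limma, adjusted p = 0.00906 at ZT1 and 5.42e-08 at ZT19). Pcsk1n, the precursor of an inhibitor of that convertase, was lower in TSR at every time, with differences of -0.59 ± 0.05, -0.62 ± 0.05, -1.01 ± 0.05 and -0.85 ± 0.07 (adjusted p = 6.04e-07 at ZT1 and 6.33e-11 at ZT13). Scg2, a granin of secretory granules, differed by -0.34 ± 0.09 at ZT7 and -0.51 ± 0.10 at ZT13 (adjusted p = 0.00588 and 3.35e-04), and Chga, another granin, by -0.67 ± 0.09 at ZT13 (adjusted p = 1.22e-05). In all, 1 gene of the list was higher and 2 were lower at ZT7, and 1 was higher and 4 were lower at ZT13. Of all genes, 13.1% were called higher and 14.1% lower at ZT7, and 24.7% higher and 22% lower at ZT13, so the counts at ZT7 lie near those shares. Over 24 arrays 0 of the 9 were called at ZT7 or ZT13 by limma, with 0 and 2 at an unadjusted p under 0.05, and 5 were higher at ZT19. Scg3, a further granin, and Pam, which amidates peptides such as vasopressin, were called at ZT19 over 24 arrays, where 55.4% of genes were called, and over 20 arrays stood at 0.09 ± 0.15 and 0.17 ± 0.12 (adjusted p = 0.665 and 0.293).

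Of 11 receptors and proteins that bind or degrade the peptides, 10 were measured and 8 tested. At ZT7, 2 were higher in TSR over 20 arrays, where 13.1% of all genes were, and 0 lower: Oxtr, the oxytocin receptor, by 0.82 ± 0.14 (limma, adjusted p = 1.84e-04), and Avpr1a, a vasopressin receptor of the brain, by 0.51 ± 0.09 (adjusted p = 2.97e-04). Avpr1a was also higher at ZT1 (0.67 ± 0.10, adjusted p = 3.19e-04). At ZT13, 3 were higher, where 24.7% of all genes were, and 0 lower, among them Trhde, the enzyme that degrades thyrotropin-releasing hormone (0.61 ± 0.09, adjusted p = 2.28e-05), and Trhr, its receptor (0.52 ± 0.19, adjusted p = 0.0272). Over 24 arrays 0 of the 8 were called at ZT7 or ZT13 by limma, with 2 and 1 at an unadjusted p under 0.05. Avpr1b and Avpr2 did not pass the filter.

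**Figure D4:**
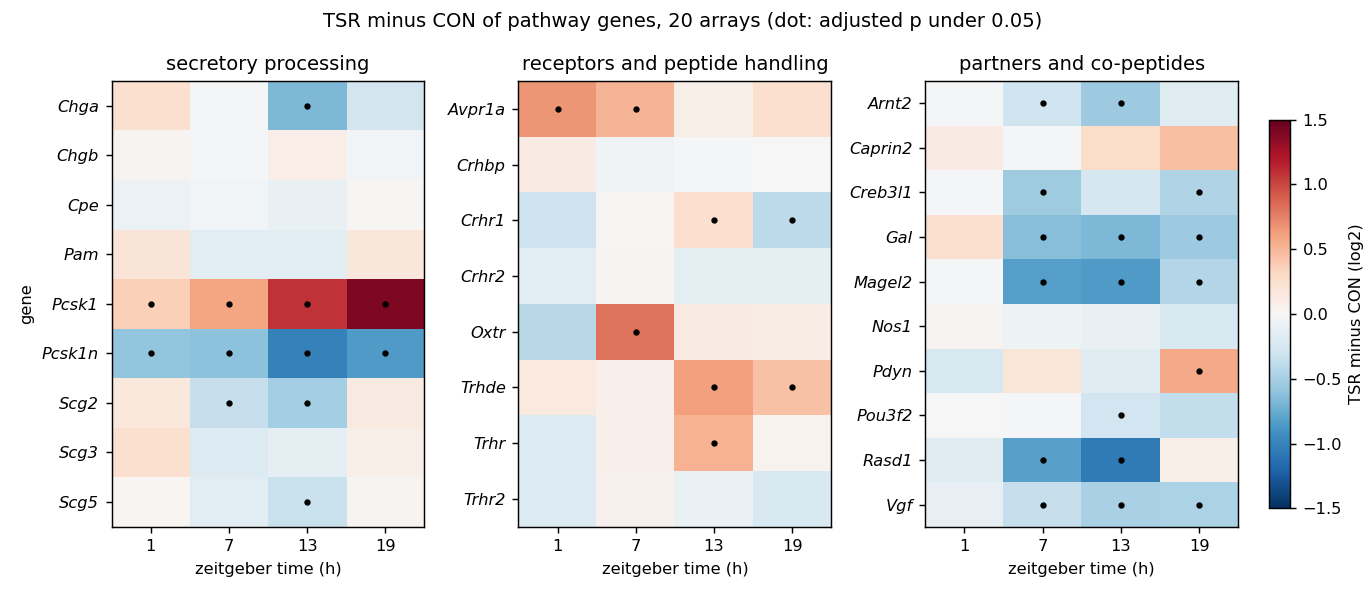
TSR minus CON (log2, colour) over 20 arrays for the tested genes of the 3 lists at each zeitgeber time (h), with a black dot where the limma adjusted p is under 0.05. Pcsk1 is higher in TSR at all 4 times, up to 1.40 at ZT19, and Pcsk1n lower, down to -1.01 at ZT13, while the partner list holds 6 genes lower in TSR at ZT7 and 6 at ZT13.

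Between mice of the same group the members did not vary together detectably. The narrow arrays lie apart from the others, so correlations of deviations from group means were computed over typical arrays alone, 19 of them in groups of more than 1. Of 15 pairs, 0 passed after adjustment, for Pearson or for Spearman, with 0 and 1 pairs at an unadjusted p under 0.05. The pair farthest from 0 was Oxt and Trh (Pearson r = -0.63, permutation p = 0.0617, adjusted p = 0.463; Spearman rho = -0.59, permutation p = 0.0381, adjusted p = 0.571), with r = -0.56 without the 2 arrays farthest from the median of Oxt. Sim1 and Otp had r = -0.16 (permutation p = 0.558, adjusted p = 0.729; rho = -0.15, permutation p = 0.597, adjusted p = 0.746), with r = -0.36 without 2 arrays.

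Across the 20 typical arrays, which share conditions and times, the genes with the most similar levels were named as a description. For Trh these were Tmem130 (Pearson r = 0.93, Spearman rho = 0.88), the imprinted gene Nnat (r = 0.93, rho = 0.92) and Vwa5b1 (r = 0.92, rho = 0.90). For Otp they were the homeobox gene Vax1 (r = 0.94, rho = 0.93), Baiap3 (r = 0.93, rho = 0.89) and the imprinted gene Dlk1 (r = 0.93, rho = 0.91). For Sim1 they were Dnah12 (r = 0.89, rho = 0.86), Syt10 (r = 0.88, rho = 0.84), a suprachiasmatic marker, and Dnah5 (r = 0.86, rho = 0.84). For Avp they were Mocs1 (r = 0.79, rho = 0.71), Paqr6 (r = 0.77, rho = 0.87) and Th, the dopamine-synthesis enzyme (r = 0.77, rho = 0.74). For Oxt they were Sox1ot (r = 0.88, rho = 0.82), Lrrc46 (r = 0.82, rho = 0.75) and Scg2 (r = 0.80, rho = 0.74), and for Crh Ano3 (r = 0.88, rho = 0.86), Rbfox1 (r = 0.87, rho = 0.79) and Kcnq3 (r = 0.85, rho = 0.80). With the narrow arrays kept, Pearson's r with Oxt was 0.062 for Sox1ot and -0.31 for Lrrc46, and with Otp -0.14 for Baiap3 and -0.11 for Dlk1, while the other genes named here kept r of 0.68 to 0.95.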

How the data were processed

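Trizol-isolated RNA of the mediobasal hypothalamus was biotin-labelled and hybridised to Affymetrix arrays, per the labels. The tool was Affymetrix Expression Console, per the submitters' processing notes; version, summarization and genome build were not given in the sources used here. What the authors deposited are log2 probe-set signals, 35556 per array. Their distributions did not share a scale, with interquartile ranges of 2.12 to 3.29 log2 units. No normalization was added unless stated. Decimal points were misplaced in some values: 2647 of 853344 cells (0.310%) were restored, 150 set to missing and 9 were missing as deposited, with 0 of them in the 6 genes. Depth has no meaning for arrays, and their number limits the precision.

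Gene symbols came from the platform's annotation; 21789 probe sets had exactly 1 symbol, 1621 several and 12146 none. The highest-mean probe set stood for each gene, and genes under the 40th percentile of means (5.86 log2 units) were removed, leaving 11871. Means of 8 groups were fitted with limma 3.58.1 in R 4.3.3 (empirical Bayes with trend, 2-sided, Benjamini-Hochberg over all genes tested), over 24 arrays and over the 20 with an interquartile range of at least 2.5 (11861 genes). Errors after ± are moderated standard errors. The fit was also run on simulated data with independent noise of the same spread in every array. Those data held no narrow arrays, so that run does not test their effect. Correlation p-values came from 100000 permutations within groups.

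The members and gene lists, the latter with 4 genes named per list by largest difference past the threshold in either fit, were chosen with earlier results of these data known. A few further list genes (Pcsk1n, Chga, Gal, Creb3l1, Arnt2, Vgf) were named after their values were seen. Replicate numbers were not taken to pair the samples. Alternatives were quantile normalization, no filter, no trend, array weights, a replicate block, decimals as deposited, other treatment of shifted cells, and leaving out each array.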

Additional observations from a re-analysis of the deposited data

Results flagged for a closer look

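The difference in 24-h rhythm between TSR and CON passed its own limma test over 20 arrays for 4 genes, and the size of that difference, as the amplitude of the cosine of TSR minus CON, was 0.8711 log2 units for Trh, 0.479 for Sim1, 0.4584 for Avp and 0.2734 for Oxt. The difference in rhythm was called for 29.5% of all genes in that fit, and for 0 of these 4 over 24 arrays, where the sizes were 1.34 for Trh, 0.72 for Sim1, 0.78 for Avp and 0.49 for Oxt and 3 of the 5 tested genes had an unadjusted limma p under 0.05. All 4 values rest on 1 CON array at ZT19.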

How the results depend on the processing

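With array weights, an alternative that keeps all arrays, the counts of members past the threshold were 3 at ZT1, 5 at ZT7, 4 at ZT13, 5 at ZT19, 4 in the average, and 4, 5 and 5 for rhythm in TSR, in CON and their difference, against 0, 0, 0, 3, 1, 0, 0 and 0 over 24 arrays and 2, 5, 4, 4, 4, 4, 2 and 4 over 20; the share of all genes called with array weights was 26.3% at ZT1 and 83.8% at ZT19, where Trh (1.31) and Oxt (0.87) were called higher in TSR. Quantile normalization of 24 arrays called 1, 1 and 2 at ZT7, ZT13 and in the average, where 56, 293 and 1080 of 11871 genes were called. It ended the Sim1 call at ZT19 (0.75). No filter over 20 arrays ended the Otp call at ZT1 (-0.29). Differences that turned sign without the narrow arrays were Trh at ZT1 (0.29) and ZT19 (-0.34), Otp at ZT1 (-0.29), Sim1 at ZT13 (0.078) and Oxt at ZT19 (-0.013), and with array weights Trh at ZT1 (0.28), Otp at ZT1 (-0.27), Sim1 at ZT13 (0.058) and the averages of Avp (0.16) and Sim1 (0.13). Oxt at ZT19 over 20 arrays was 0.17 under quantile normalization. The fit with array weights leaned toward the narrow CON arrays at ZT19, as the Trh and Oxt differences there show. Relative to Sim1 and Otp over 24 arrays, leaving out the narrow arrays gave counts of 3, 3 and 2 at ZT1, ZT7 and ZT13. Of all genes, 76.9%, 94% and 57.2% were called there, so most genes were called as well. Leaving them out turned Avp (0.26) and Oxt (0.29) at ZT1 and Trh at ZT19 (-0.24). Quantile normalization gave 1, 1 and 2 at ZT7, ZT13 and ZT19, where 3498, 1672 and 7092 of 11869 genes were called. Against Sim1 alone over 24 arrays the counts were 1, 2 and 1 at ZT7, ZT13 and in the average, and Avp turned at ZT1 (0.037), ZT7 (-0.0063) and in the average (-0.033), Oxt at ZT1 (0.24), ZT19 (-0.48) and in the average (-0.16), and Trh at ZT19 (-0.21). Against Otp alone the count was 3 at ZT19 and Trh turned at ZT1 (-0.36). Over 20 arrays Sim1 alone gave counts of 1 at ZT7 and 2 at ZT19 and turned Avp at ZT7 (-0.0063) and in the average (-0.025) and Oxt at ZT19 (-0.44) and in the average (-0.15); Otp alone gave 1 at ZT1 and 2 at ZT19 and turned Avp (0.27) and Oxt (0.13) at ZT13 and Trh at ZT19 (0.30). Shares of all genes called against Sim1 alone or Otp alone are not given here, so those counts cannot be read against them. The cause of these changes was not tested. On leaving out 1 array of 24, counts ran from 0 to 1 at ZT7, 0 to 2 at ZT13, 0 to 4 at ZT19, 0 to 2 for rhythm in CON and 0 to 3 for its difference; differences ran from -0.67 to 0.29 for Trh at ZT1, -0.29 to 0.17 for Otp at ZT1 and -0.83 to 0.078 for Sim1 at ZT13. Relative to Sim1 and Otp, counts ran from 0 to 1 at ZT7, ZT13 and in the average and 0 to 2 at ZT19, and differences at ZT1 from -0.70 to 0.26 for Avp, -0.44 to 0.29 for Oxt and -0.28 to 0.64 for Trh, and from -0.063 to 0.12 for the average of Oxt. Of the 20, leaving out 1 gave 0 to 3 calls at ZT1, and Oxt ran from -0.14 to 0.0057 at ZT1 and -0.042 to 0.032 at ZT19. Replicate numbers were not taken to pair the samples. Deviations of same-numbered TSR and CON arrays of a time from their group means had correlations of -0.43 to 0.39, 5 of 12 over 0.1. With the narrow arrays among them, these cannot exclude shared handling by number. With a replicate block over 24 arrays the counts stayed at 0, 0, 0, 3 and 1 for the times and the average, and over 20 arrays they were 2, 5, 4, 4 and 4, with 4, 3 and 5 for rhythm in TSR, in CON and their difference; Oxt at ZT19 was 0.035. With that block over 24 arrays 4, 40, 27, 6603 and 231 of 11871 genes were called at ZT1, ZT7, ZT13, ZT19 and in the average. Shares of all genes are not given here for the block over 20 arrays or for the fits without 1 array. The counts of those fits cannot be read against them. Correlations within groups are not given over 24 arrays, since the narrow arrays lie apart.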
